A study of Daphnia magna with 36 samples.

Results

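Zinc oxide nanoparticles (ZnO NP) were compared with silica nanoparticles (labelled SiO NP) in the freshwater crustacean Daphnia magna, each at its LC25, a lethal concentration named for the percentage of animals it kills in a toxicity test. The comparison used the 12 arrays that the titles place in these groups, out of 36 in the series, and they stand for 8 of the 23 exposures. Animals were whole adult females, 10 days old, kept for 24 h at 25 °C with ZnO NP at 9.0 mg/L or SiO NP at 5.1 mg/L, so the levels were matched in toxicity and not in mass. Zinc sulphate (ZnSO4) at its LC25 and groups at 1/10 of the LC50, with the same age, time and temperature, give further values below. Every array carried RNA of exposed animals in one dye and RNA of unexposed animals in the other, each from 16 pooled daphnids, and the labels do not say whether exposures shared a batch of unexposed animals. ZnO NP exposures 2 and 3 and SiO NP exposures 1 and 3 were measured on dye-swapped arrays, and the other exposures of both groups on 1 array with the exposed RNA in Cy5. The 2 groups thus had the same dye layout, but only for spots with all values present. Both swapped arrays had a value for 4416 and 3696 spots in ZnO NP exposures 2 and 3. In SiO NP exposures 1 and 3 both had one for 5701 and 6089 spots. Arrays of one exposure were averaged before 4 exposures were set against 4.

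Daphnids feed by filtering particles out of the water, so that suspended nanoparticles reach the gut as well as the body surface. ZnO particles dissolve in part and release zinc ions, a metal that cells need in traces and that is toxic in excess, whereas silica releases no zinc. The comparison therefore sets a particle that supplies zinc against a particle of another material at nominally equal toxicity. Responses to zinc in animals are known to involve metal-binding proteins such as metallothioneins. Which of the probes measure such genes could not be said here: the files identify each spot, called a probe below, only by its plate position, and 0 of the 7680 probe identifiers matched the gene table for the organism. Results are given for probes, and lists of genes for metal binding, antioxidant defence, heat shock, digestion, cuticle, oxygen transport and yolk were not tested.

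The values are log ratios between the channels of an array, taken as log2, so that 1 is a 2-fold ratio. Neither the labels nor the file say which RNA is the numerator, and ratios are therefore called positive or negative, not induced or repressed. The dye-swapped arrays correlated across probes at r = 0.570 and 0.715 for ZnO NP exposures 2 and 3, and at -0.258 and 0.172 for SiO NP exposures 1 and 3. With the ZnO NP pairs as the guide, the deposited ratios were read as already turned to one direction, but this is not settled. Of 34 pairs formed by arrays that carried the exposed RNA in the same dye, 1 pair correlated below -0.3: exposure 3 of ZnO NP and exposure 3 of SiO NP, both in Cy5, at r = -0.383. That r is the same under either reading, so it does not bear on the numerator. Since the dye-swapped arrays of SiO NP exposure 1 correlated negatively, main results are also given with every ratio read as Cy5 over Cy3. That reading turns the sign of r in every swapped pair, so both ZnO NP pairs and that of SiO NP exposure 3 then correlate negatively.

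No probe passed the test between ZnO NP and SiO NP, which does not show that the particles acted alike. In the limma fit of the 8 exposures, 0 of 5921 probes (0%) passed an adjusted p of 0.05, and the lowest adjusted p was 0.302. An unadjusted p below 0.05 was reached by 413 probes (6.98%), of which 183 (3.09%) had the higher ratio under ZnO NP and 230 (3.88%) the lower. With ratios read as Cy5 over Cy3, 0 probes passed and 210 of 5921 (3.55%) had an unadjusted p below 0.05, 115 with a positive and 95 with a negative difference.

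**Figure D1:**
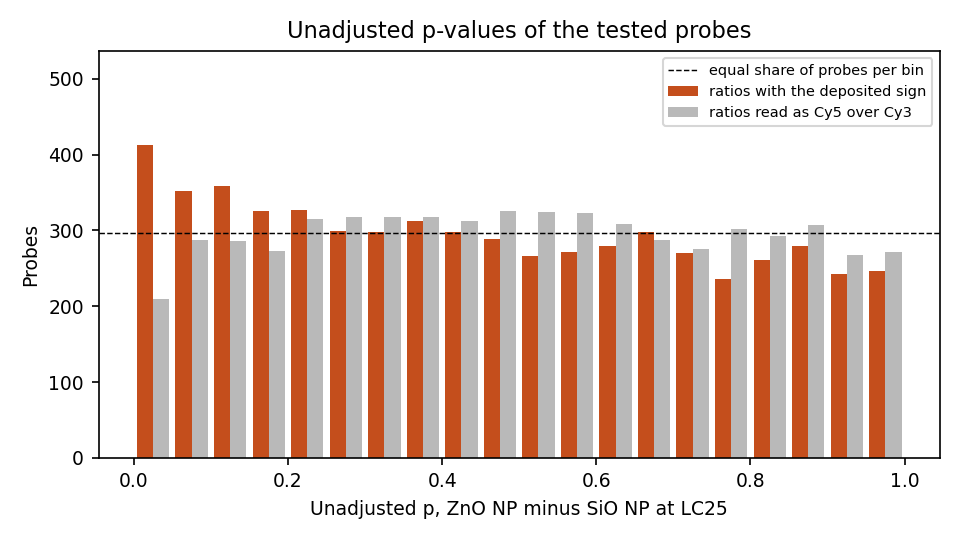
Number of the 5921 tested probes (vertical axis) per bin of unadjusted p (horizontal axis, 0 to 1 in steps of 0.05) for ZnO NP minus SiO NP at the LC25, with the deposited sign in orange and read as Cy5 over Cy3 in grey; the dashed line is an equal share of probes per bin. The lowest bin holds 413 probes with the deposited sign, above the line, and 210 with the other reading, below it.

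The test bounds most differences. For 5306 of the 5921 probes (89.6%) the 95% confidence interval of the difference lay wholly between -1 and 1, so a 2-fold difference in either direction fell outside it. For 614 probes the interval held a 2-fold difference, and for 1, P4AB6, it lay wholly beyond one. The median half-width of the interval was 0.43, against a median absolute difference of 0.16. An estimated difference of 1 or more, in either direction, was found for 28 probes (0.473%). Among the 3264 probes with a value in all 8 exposures, the exposures of both groups did not overlap for 106 (3.25%), with ZnO NP above SiO NP for 63 (1.93%) and below it for 43 (1.32%). Read as Cy5 over Cy3, 88 (2.70%) did not overlap. If the 8 exposures were assigned to the groups at random, the groups would not overlap with a probability of 0.0286, near both shares.

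With the deposited sign, ZnO NP lay farther from 0 more often than SiO NP where the groups differed most. Among the 413 probes with an unadjusted p below 0.05, the mean ratio under ZnO NP was the larger in absolute size for 302 (73.1%), against 54.4% of all probes tested. The means had opposite signs for 327 of them (79.2%), against 37.0% of all probes tested. The median absolute mean ratio of the 413 was 0.38 under ZnO NP and 0.19 under SiO NP. Read as Cy5 over Cy3, the same probes had the larger mean under ZnO NP for 51.6%, against 49.3% of all probes tested, and opposite signs for 56.9%, against 44.1%. Their median absolute means were then 0.15 under ZnO NP and 0.16 under SiO NP. These probes were picked by the difference itself, so the counts describe the set and were not tested. ZnO NP exposures also spread more around their mean: the median SD per probe was 0.27 for ZnO NP and 0.22 for SiO NP over all probes tested, and the larger SD lay with ZnO NP for 62.5% of probes. Read as Cy5 over Cy3 these figures were 0.24 for ZnO NP and 0.26 for SiO NP, and the larger SD lay with ZnO NP for 46.4%. The part of unequal spread in the counts was not tested, nor that of averaging swapped arrays, which correlated less under SiO NP.

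**Figure D2:**
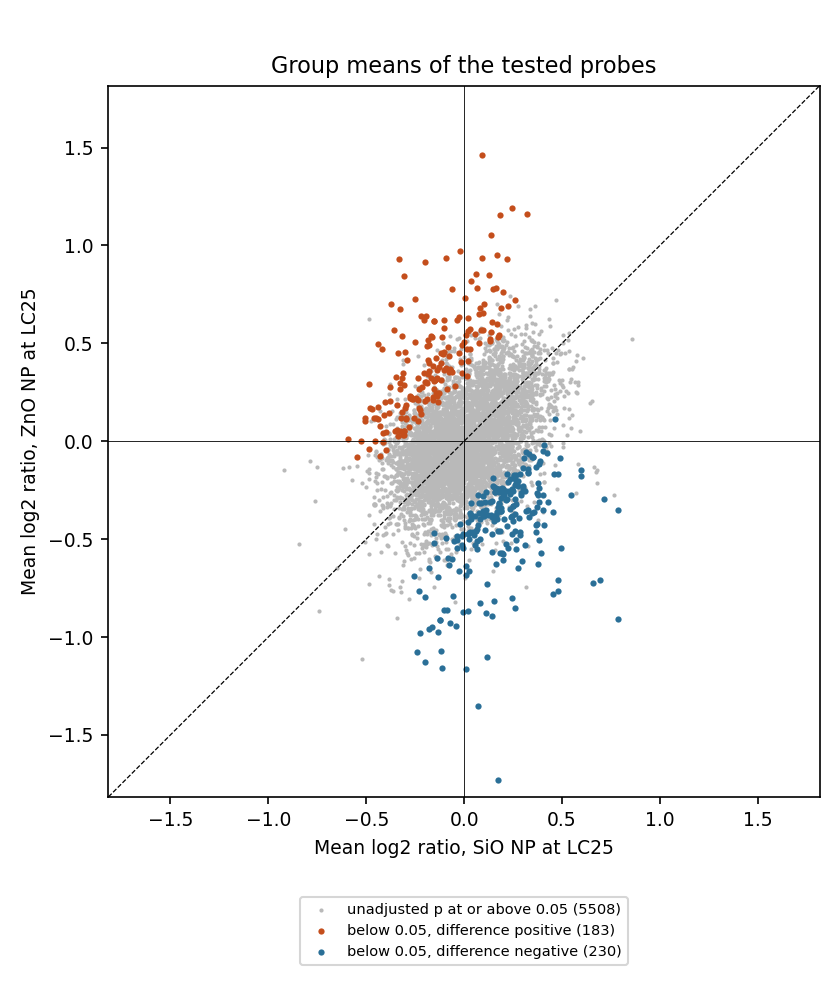
Mean log2 ratio under ZnO NP (vertical axis) against that under SiO NP (horizontal axis) for the 5921 tested probes at the LC25; the dashed line marks equal means. The 183 probes in orange and the 230 in blue had an unadjusted p below 0.05 and a positive or negative difference, and with the deposited sign used here they reach farther along the ZnO NP axis than along the SiO NP axis.

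The probes below are those with the smallest p in each direction among probes with a value in all 8 exposures, and none passed the threshold. Picking by p favours probes whose groups do not overlap. P12CF5 had ratios of -0.82, -1.03, -0.69 and -0.94 in ZnO NP exposures 1 to 4, against 0.26, -0.10, -0.08 and 0.01 in SiO NP exposures 1 to 4. All ZnO NP values lay below all SiO NP values, and each of the 6 ZnO NP arrays was negative in both dye orientations, between -1.22 and -0.59. The means were -0.87 ± 0.15 under ZnO NP and 0.02 ± 0.17 under SiO NP (SD, n = 4 each), a difference of -0.89 ± 0.15 (SE; limma adjusted p = 0.302). The difference of P12CF5 was -0.41 when read as Cy5 over Cy3.

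P6AC5 had -1.19, -0.98, -0.57 and -1.18 in ZnO NP exposures 1 to 4, against -0.05, -0.27, -0.22 and -0.35 in SiO NP exposures 1 to 4. Ratios were negative in every exposure of both groups, with no overlap. The means were -0.98 ± 0.29 under ZnO NP and -0.22 ± 0.13 under SiO NP (SD, n = 4 each), a difference of -0.75 ± 0.17 (SE; limma adjusted p = 0.441), and -0.31 with the other reading of the dyes.

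On the positive side, P10CH2 had 0.31, 1.22, 1.36 and 0.85 in ZnO NP exposures 1 to 4, against -0.01, -0.10, -0.25 and -0.96 in SiO NP exposures 1 to 4. The groups did not overlap, with every ZnO NP exposure positive and every SiO NP exposure at or below 0. The difference of the means, 0.93 ± 0.47 under ZnO NP and -0.33 ± 0.43 under SiO NP (SD, n = 4 each), was 1.26 ± 0.26 (SE; limma adjusted p = 0.441). It was 0.63 read as Cy5 over Cy3.

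A7G17 had 0.85, 0.60, 0.52 and 0.17 in ZnO NP exposures 1 to 4, against -0.41, -0.27, -0.10 and -0.48 in SiO NP exposures 1 to 4. Every ZnO NP exposure was positive and every SiO NP exposure negative. Means of 0.54 ± 0.28 under ZnO NP and -0.32 ± 0.17 under SiO NP (SD, n = 4 each) gave a difference of 0.85 ± 0.18 (SE; limma adjusted p = 0.441), or 0.53 with the other reading. In SiO NP exposure 1 its swapped arrays had opposite signs, -1.07 with the exposed RNA in Cy5 and 0.25 with it in Cy3.

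A further pair of probes was added after their values were seen, because they passed the threshold in another form of the fit. With the deposited sign P4AB6 had the smallest p of all probes tested and the largest absolute difference, -1.90 ± 0.29 (SE; limma adjusted p = 0.302). With the other reading its difference was -0.72 (limma adjusted p = 0.981), and the largest absolute difference of any probe was 1.81. Its ratios were -2.16, -0.97 and -2.06 in ZnO NP exposures 1 to 3, with no value in exposure 4, against -0.11, 0.59, 0.11 and 0.10 in SiO NP exposures 1 to 4. Without ZnO NP exposure 2, its highest value there, the difference of P4AB6 was -2.28 (limma adjusted p = 0.00811), and this was the only probe past the threshold with an exposure left out. P4BC2 had 0.27, 1.24, 1.54 and 0.32 in ZnO NP exposures 1 to 4, against -0.33, -0.12, -0.25 and -0.53 in SiO NP exposures 1 to 4, a difference of 1.15 ± 0.27 (SE; limma adjusted p = 0.441), or 0.29 with the other reading. With the deposited sign, the values of both probes did not overlap between the groups.

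Soluble zinc (ZnSO4) at its LC25, 0.91 mg/L, was not part of the test and gives further values for these probes. Its dye layout differed from that of the particles. Exposures 1 to 3 were single arrays with the exposed RNA in Cy5. Exposure 5 was a single array with it in Cy3, and exposure 4 a dye-swapped pair. P12CF5 averaged -0.71 ± 0.37 and P6AC5 -0.95 ± 0.40 under ZnSO4 (SD, n = 5), nearer to their ZnO NP means than to their SiO NP means. With the other reading this turned: P12CF5 then averaged -0.41 under ZnO NP and -0.01 under SiO NP, with -0.10 under ZnSO4, and P6AC5 averaged -0.54 under ZnO NP and -0.23 under SiO NP, with -0.25 under ZnSO4. P10CH2 averaged 0.72 ± 0.67 and P4BC2 0.42 ± 0.48 under ZnSO4 (SD, n = 5), also nearer to ZnO NP. A7G17 averaged 0.16 ± 0.16 (SD, n = 4), between both particles. P4AB6 averaged -0.24 ± 0.70 (SD, n = 5) under ZnSO4, where exposure 2 had -1.47 and the others lay between -0.07 and 0.32, nearer to SiO NP.

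**Figure D3:**
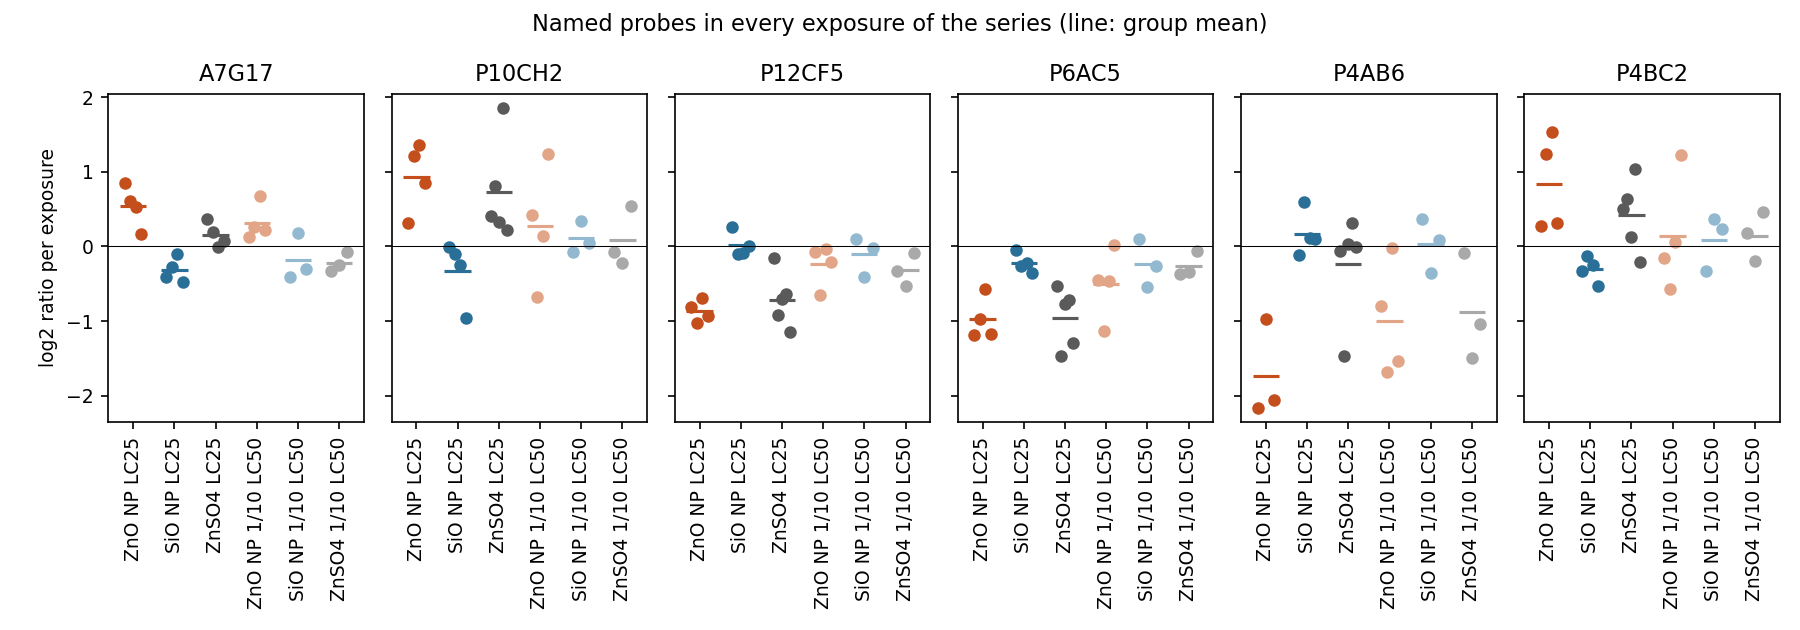
log2 ratio (vertical axis) of the 6 named probes in every exposure of the series, grouped along the horizontal axis by toxicant and level; points are exposures and lines group means. At the LC25 the ZnO NP points of each probe lie clear of the SiO NP points, while the ZnSO4 points of P12CF5 and P6AC5 average -0.71 and -0.95.

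With the deposited sign, the zinc salt in the larger sets lay nearer to SiO NP for most probes with a negative difference. For those with a positive difference it was split more evenly between the particles. The 183 probes with a positive difference had a median mean ratio of 0.36 under ZnO NP and -0.18 under SiO NP at the LC25, and of 0.11 under ZnSO4 at the LC25. The 230 probes with a negative difference had medians of -0.38 under ZnO NP and 0.19 under SiO NP, and of 0.06 under ZnSO4. Over all probes tested the medians were -0.02 for ZnO NP, -0.002 for SiO NP and -0.03 for ZnSO4. The ZnSO4 mean was nearer to the ZnO NP mean than to the SiO NP mean for 101 of 181 probes (55.8%) of the positive set and 76 of 230 (33.0%) of the negative set, against 47.4% of all probes tested. Read as Cy5 over Cy3, it was nearer to ZnO NP for 60.8% of the positive and 53.5% of the negative set, against 51.3% of all probes tested, so for the negative set the nearer particle depended on the reading. These shares are descriptions, since the probes were picked by the difference between the particles.

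Whether the difference between the particles depended on the level was asked with the groups at 1/10 of the LC50, ZnO NP at 2.2 mg/L and SiO NP at 1.4 mg/L. In the limma interaction fit of the 4 groups, 0 of 5544 probes (0%) passed the threshold, with 225 (4.06%) at an unadjusted p below 0.05 and a lowest adjusted p of 0.993. The error of this contrast was larger, with a median 95% half-width of 0.55. At the lower level ZnO NP exposures 3 and 4 were single arrays with the exposed RNA in Cy3. The other exposures of both particles there were dye-swapped pairs. The medians and means below have no dye term, so a dye effect cannot be told apart from a difference between the particles at that level. At the lower level the positive set had a median difference, ZnO NP minus SiO NP, of 0.06 and the negative set one of -0.14, against 0.52 and -0.55 at the LC25, where the sets were chosen. With the other reading, the medians at the lower level had the opposite signs, -0.06 and 0.07, against 0.26 and -0.26 at the LC25. Probe values at the lower level follow with the deposited sign. P12CF5 averaged -0.24 ± 0.28 (SD, n = 4) under ZnO NP and -0.11 ± 0.27 (SD, n = 3) under SiO NP at 1/10 LC50. P6AC5 averaged -0.51 ± 0.48 (SD, n = 4) under ZnO NP and -0.24 ± 0.32 (SD, n = 3) under SiO NP there, and for both probes the means at the lower level differed by less than their SDs. A7G17, with 0.32 ± 0.24 (SD, n = 4) under ZnO NP and -0.18 ± 0.31 (SD, n = 3) under SiO NP at 1/10 LC50, had the same signs there as at the LC25, but read as Cy5 over Cy3 its ZnO NP mean was 0.16 at the LC25 and -0.35 at the lower level. P4AB6 averaged -1.01 ± 0.76 (SD, n = 4) under ZnO NP and 0.03 ± 0.36 (SD, n = 3) under SiO NP at 1/10 LC50. Under ZnSO4 at 1/10 LC50, 0.13 mg/L, it averaged -0.88 ± 0.72 (SD, n = 3). With the other reading its means at the lower level were 0.52 under ZnO NP, 0.15 under SiO NP and 0.22 under ZnSO4. P10CH2 averaged 0.28 ± 0.79 (SD, n = 4) under ZnO NP and 0.11 ± 0.21 (SD, n = 3) under SiO NP at the lower level, a difference smaller than the SD of the ZnO NP exposures.

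With the deposited sign, most exposures did not correlate best with another exposure to the same particle. Over the 3264 probes valued in all 8 exposures, the 6 pairs of ZnO NP exposures correlated between -0.0082 and 0.254 (median r = 0.113) and the 6 pairs of SiO NP exposures between -0.0539 and 0.351 (median 0.220). The 16 pairs of a ZnO NP and a SiO NP exposure correlated between -0.200 and 0.496 (median 0.148). The highest r of ZnO NP exposure 2 was with SiO NP exposure 3 (0.496), that of ZnO NP exposure 3 with SiO NP exposure 1 (0.340) and that of ZnO NP exposure 4 with SiO NP exposure 2 (0.385), and in each case the relation held from the SiO NP side too. Thus 3 of 4 ZnO NP exposures and 3 of 4 SiO NP exposures resembled an exposure to the other particle most. Read as Cy5 over Cy3, 2 of 4 in each group did. Each exposure had 4 possible partners in the other group and 3 in its own. Without any grouping, the best partner would thus lie in the other group more often than not. Probes of one array are not independent and share its hybridization, and any unexposed RNA common to both arrays would raise r, so no p is given. In each of these best pairs of a ZnO NP and a SiO NP exposure, both had the same array layout. Both were dye-swapped, or both had 1 array with the exposed RNA in Cy5. Whether the layout, shared unexposed animals or a shared run played a part was not tested.

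**Figure D4:**
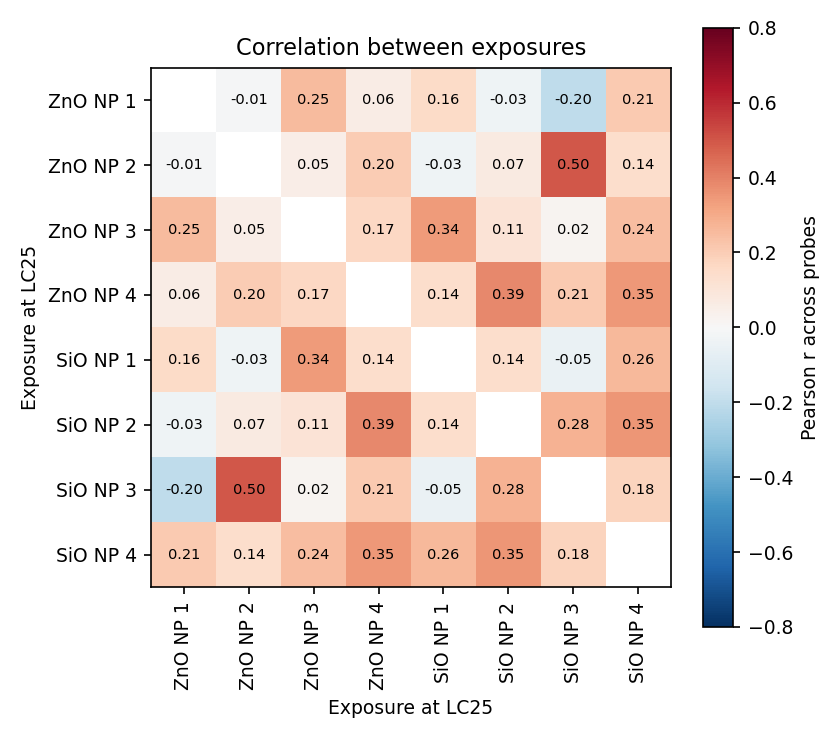
Pearson r across 3264 probes between the 4 ZnO NP and the 4 SiO NP exposures at the LC25 (both axes list exposures by number; colour and printed value give r). The 2 highest values, 0.496 and 0.385, lie between a ZnO NP and a SiO NP exposure.

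The arrays themselves differed between the groups in how many probes had a value. ZnO NP exposures had a value for 73.5%, 77.2%, 76.1% and 46.7% of the 7680 probes, against 85.6%, 85.9%, 88.9% and 75.4% in SiO NP exposures 1 to 4. Only SiO NP exposure 4 fell inside the ZnO NP range. The means were 68.4% ± 14.6 for ZnO NP and 83.9% ± 5.89 for SiO NP (SD, n = 4 each), a difference of -15.6 percentage points (exact two-sided permutation test, p = 0.0857; 0.114 adjusted over 3 such tests). The smallest p that 4 against 4 exposures allow is 0.0286. The test treats exposures as independent units, which does not hold for missing values that fall on whole groups, as described below. Under ZnO NP 3 of the 6 arrays had values for fewer than 60% of probes, and 0 of 6 did under SiO NP.

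The missing values fell on whole groups as well as on single arrays. No probe had a value in exactly 1 exposure of either group. The exposures of a group were thus not valued independently of each other, and the permutation p of the valued shares is only descriptive. A set of 991 probes (12.9% of the table) had a value in at least 2 SiO NP exposures and in no ZnO NP exposure, 229 of them in all 4 SiO NP exposures, whereas 21 had the reverse. Most of the 991 were measurable elsewhere: 874 had a value under ZnSO4 at the LC25, 737 under ZnO NP at 1/10 LC50 and 734 under SiO NP at 1/10 LC50. Of the 5921 probes tested, 5885, 5642 and 5662 had a value in these groups. The 991 thus lacked values more often in each of these groups too. The SiO NP ratios of the 991 were of ordinary size, with a median absolute mean of 0.13, against 0.14 for the probes tested. No difference between the particles can be given for these probes. ZnO NP exposure 4 alone accounted for 1727 of the 1822 probes that had all values except 1 from ZnO NP, and whether low signal or array quality emptied them was not tested.

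With the arrays of an exposure averaged and the deposited sign, ratios spread more widely in most ZnO NP exposures. The difference did not pass the test. Across the 3264 probes valued throughout, the SD of the log2 ratios was 0.440, 0.436, 0.487 and 0.319 in ZnO NP exposures 1 to 4, against 0.334, 0.279, 0.343 and 0.353 in SiO NP exposures 1 to 4. ZnO NP exposures 1 to 3 lay above every SiO NP exposure and exposure 4 lay among them. The difference in means was 0.093 (exact two-sided permutation test, p = 0.114, adjusted 0.114), and it was -0.0027 with ratios read as Cy5 over Cy3 and 0.015 with 1 array per exposure. Ratios beyond 2-fold made up 3.55%, 2.91%, 4.56% and 1.07% of probes in ZnO NP exposures 1 to 4, against 1.35%, 0.490%, 1.56% and 0.766% in SiO NP exposures 1 to 4. The means were 3.03% ± 1.47 for ZnO NP and 1.04% ± 0.498 for SiO NP (SD, n = 4 each), a difference of 1.98 percentage points (exact two-sided permutation test, p = 0.0857, adjusted 0.114). Read as Cy5 over Cy3 this difference was 0.689 (exact permutation p = 0.457), and with 1 array per exposure the order turned, to -0.251 (exact permutation p = 0.857). Single arrays, over all their valued probes, had SDs of 0.485 and 0.514 in SiO NP exposure 1 and of 0.460 and 0.359 in SiO NP exposure 3. In ZnO NP exposure 2 the SDs were 0.435 and 0.484, and in ZnO NP exposure 3 they were 0.460 and 0.554. The part of averaging swapped arrays in these differences was not tested, nor was any other cause.

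**Figure D5:**
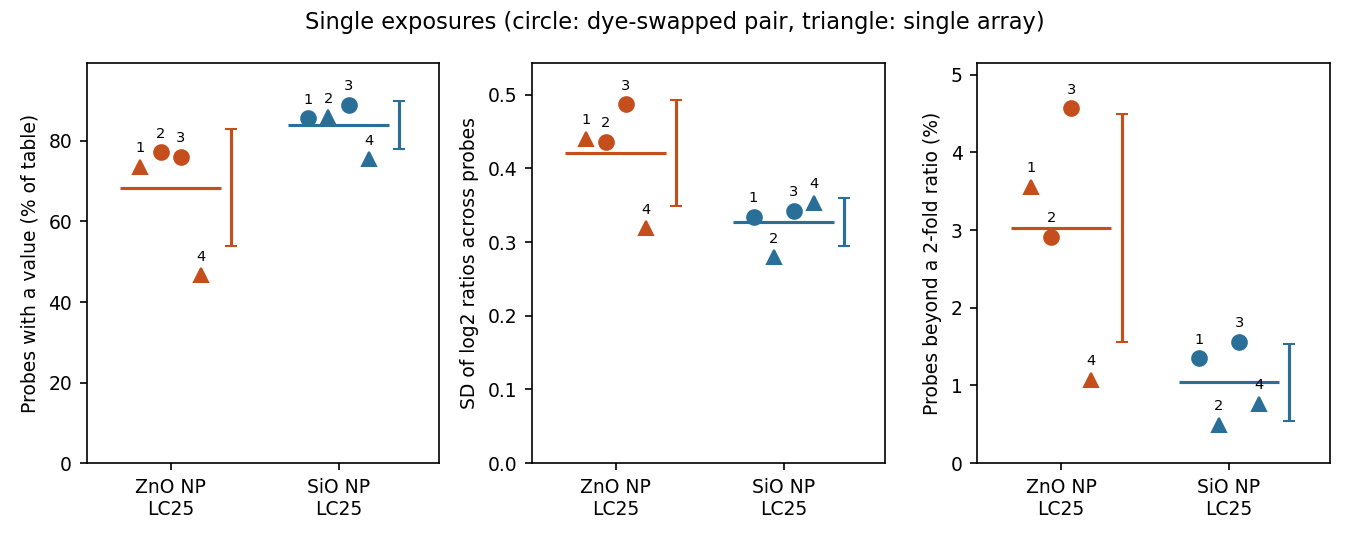
Percentage of the 7680 probes with a value, SD of log2 ratios and percentage of ratios beyond 2-fold (vertical axes, left to right) in the 4 ZnO NP and the 4 SiO NP exposures at the LC25. Numbers name the exposure, circles are dye-swapped pairs, triangles single arrays, lines means and bars ± 1 SD; ZnO NP exposure 4 has the fewest values, 46.7%, and a spread inside the SiO NP range.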

How the data were processed

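Per the labels' protocols, RNA was copied into aminoallyl-labelled cDNA and coupled to Cy5 or Cy3, and the authors deposited a table of log ratios between the channels, used here as log2 values, with 7680 spots per array. The log base is an assumption: the base, scanner, background correction, normalization, spot filter and numerator are not given in the sources used here. Another base would rescale all values alike and leave the limma tests as they are, but not the counts and the test that use a 2-fold bound. The deposited ratios were centred near 0, and means of the 12 arrays lay between -0.0209 and 0.0155. No brightness was used, so the number of arrays limits the precision.

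Arrays of one exposure number were averaged (avearrays). Probes were kept where each group had 2 or more valued exposures, and were fitted with limma 3.58.1 (R 4.3.3; lmFit and eBayes, two-sided, Benjamini-Hochberg over all probes tested, threshold 0.05), on these groups alone because the spread differed between the study's groups. The interaction with the level had a dye term. The code was tested on simulated data. Nothing says that exposures were independent cultures, so p-values measure the spread between these samples. The members, comparisons and lists were chosen with earlier results of these data known. Named probes are the 2 per direction with the smallest p among those past the threshold or, where fewer than 2 pass, among probes valued in all 8 exposures. Alternatives covered dye, direction, filter, averaging, normalization, centring, variance model and left-out exposures.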

Additional observations from a re-analysis of the deposited data

Results flagged for a closer look

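Of 29 sets of 4 or 5 exposures checked for an outlying value at Dixon's 95% level, 2 held one, and chance alone gives one in about 5% of such sets. ZnO NP exposure 4 at the LC25 had a value for 46.7% of probes, far below the other ZnO NP exposures (73.5% to 77.2%). Without it, 0 probes passed, 526 had an unadjusted p below 0.05 against 413 with it, and the difference in valued probes was -8.33 percentage points instead of -15.6. P4AB6 in ZnSO4 exposure 2 at the LC25 had a ratio of -1.47, while the other ZnSO4 exposures lay between -0.07 and 0.32.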

How the results depend on the processing

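Of the 27 other settings, the filter of at least 1 valued exposure per group kept the same probes as the main fit and could not differ. The count of 0 probes between ZnO NP and SiO NP stayed at 0 in 25 of these 27, that filter included, with 126 to 526 probes at an unadjusted p below 0.05. It was 1 without ZnO NP exposure 2 (P4AB6; 0 to 1 over the exposures left out) and 4 when the 12 arrays entered singly with exposure as random block (P10CH2, P4BC2, P12CF5 and P4AB6; adjusted p = 0.0314 for each); there the estimated correlation within an exposure was -0.0467, so swapped arrays counted nearly as separate replicates. The level contrast gave 0 in all 18 other settings. Intervals within 1 log2 unit were counted for 5306 probes, and for 4941 to 5152 with an exposure left out. With all 8 exposures valued it was 3012 and with single arrays alone 2622, where fewer probes were tested. As a share of the probes tested it was 89.6% in the main fit and ranged from 72.7% to 93.2% over the settings. The share was lowest with dye-swapped pairs alone, 78.9% with single arrays alone and 82.9% with 1 array per exposure. Over the settings that gave a value (P4AB6 had none with single arrays alone or with all 8 exposures valued), P12CF5 ranged from -0.95 to -0.41, P6AC5 from -0.89 to -0.31, P10CH2 from 0.63 to 1.47, A7G17 from 0.53 to 1.09, P4AB6 from -2.28 to -0.72 and P4BC2 from 0.29 to 1.68, all with one sign.

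The difference in valued probes ranged from -18.5 to -8.33 points with an exposure left out, and was -22.2 (exact permutation p = 0.0286, the smallest possible) when every array of an exposure had to have a value. This p is only descriptive, since missing values fell on whole groups. The SD difference ranged from 0.071 to 0.125 and that in ratios beyond 2-fold from 1.47 to 2.60 points; they reversed to -0.0027 read as Cy5 over Cy3 and to -0.251 with 1 array per exposure. With the exposure number as a replicate block 0 probes passed and 357 had an unadjusted p below 0.05; same-numbered exposures deviated together at r = 0.173, -0.101, -0.205 and -0.010, and 0 exposures correlated best with their own number. Leaving out the 3 arrays under 60%, and the dye term with the Cy5 over Cy3 reading, were chosen after seeing the data.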
